A study of Mus musculus with 7 samples.

Results

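The 40 genes described here drive DNA replication and cell division. They were taken from the table by gene symbol as a fixed list, with 18 genes that act around the start and course of DNA synthesis (S phase) kept apart from 22 genes of the G2 phase and mitosis (G2/M). All 40 were among the 24421 genes of the table, and all 40 passed the filter on low counts, as did 13545 genes in all. RNA was sequenced from 7 mouse tumours. Every mouse was given anti-PD-1, an antibody to an inhibitory receptor on T cells, and the tumours carry the label week 4. The partner antibody was the control anti-KLH in 3 mice (controls) and anti-LAIR1 in 4 mice. LAIR1 is a receptor of leukocytes that binds collagen and inhibits them. The series text describes a pair of tumour models. In the first, 344SQ lung cancer cells, a line derived from genetically engineered mice, were placed under the skin of 129/Sv mice of either sex aged 6 to 8 weeks. For that model the stated dose is 10 mg/kg of anti-LAIR and, of anti-PD-1, 8 mg/kg. In the other, lung tumours were started in genetically engineered mice aged 3 to 4 months by adenovirus that delivers Cre through the airway, with antibodies given 2 months later. The labels do not say which model gave these 7 tumours. The control mice are named LOHM or KWM and all treated mice WTSV. The labels do not explain these names, and whatever they stand for cannot be told apart from the treatment.

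A cell copies its DNA once per division. In G1 the MCM helicase is loaded on replication origins, S phase cyclins then switch the origins on, and the E2F factors raise transcription of the replication genes. In G2 a later set of genes, bound by B-MYB, FOXM1 and the MuvB complex, supplies the cyclin B kinase, the spindle motors and the ubiquitin ligase that ends mitosis. In bulk tumour RNA the summed level of these genes is widely used as a measure of how many cells are dividing. Fewer dividing cells and less of these RNAs per cell cannot be told apart in such data, nor can dividing tumour cells and dividing leukocytes.

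The comparison asks what blocking LAIR1 adds to PD-1 blockade. No member passed the test. In edgeR's quasi-likelihood test 0 of 18 S phase and 0 of 22 G2/M genes had an adjusted p under 0.05, against a background of 0% of the 13545 genes tested, and 0 members had an unadjusted p under 0.05, against 5.15% of all genes. The smallest adjusted p among members was 0.980. DESeq2, which called 0.39% of all genes, and limma-voom also called 0 members. For all 40 members the control and anti-LAIR1 libraries overlapped, while the groups did not overlap for 5.57% of all genes (3.06% higher with anti-LAIR1 in every library). What the members showed was a large difference between single tumours that ran through both groups.

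Expression is given as CPM, read counts brought to a common library size with TMM factors. Unless another order is named, values are listed for control replicates 1, 2 and 3 and then anti-LAIR1 replicates 1, 2, 3 and 4. The S phase level, the mean log2 CPM of the 18 genes, was 4.26, 4.77 and 4.95 in controls and 4.24, 4.62, 5.01 and 4.97 with anti-LAIR1. The G2/M level, the mean of the 22 genes, was 4.48, 5.11 and 5.30 in controls and 4.71, 5.02, 5.60 and 5.46 with anti-LAIR1. Each group thus held tumours of low and of high level. Control replicate 1 and anti-LAIR1 replicate 1 were low in both lists, and anti-LAIR1 replicates 3 and 4 and control replicate 3 were high. For the S phase level the range was 0.69 among controls and 0.77 among anti-LAIR1 tumours on the log2 scale, against a difference of 0.05 between the group means. For the G2/M level the ranges were 0.83 and 0.89, against a difference of 0.23.

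Single genes followed the same order of tumours. Control replicate 1 and anti-LAIR1 replicate 1 were the lowest pair of libraries for 17 of 18 S phase genes and 20 of 22 G2/M genes, against 8.34% of all genes tested. Control replicate 1 was the lowest library for 20 of 22 G2/M genes and 10 of 18 S phase genes, against 15.7% of all genes. Anti-LAIR1 replicate 3 was the highest for 18 of 22 G2/M genes and 8 of 18 S phase genes, against 12.5% of all genes. The highest pair was anti-LAIR1 replicates 3 and 4 for 19 of 22 G2/M genes but 7 of 18 S phase genes, against 6.07% of all genes. These counts are descriptions, since members that move together are not separate observations.

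**Figure D1:**
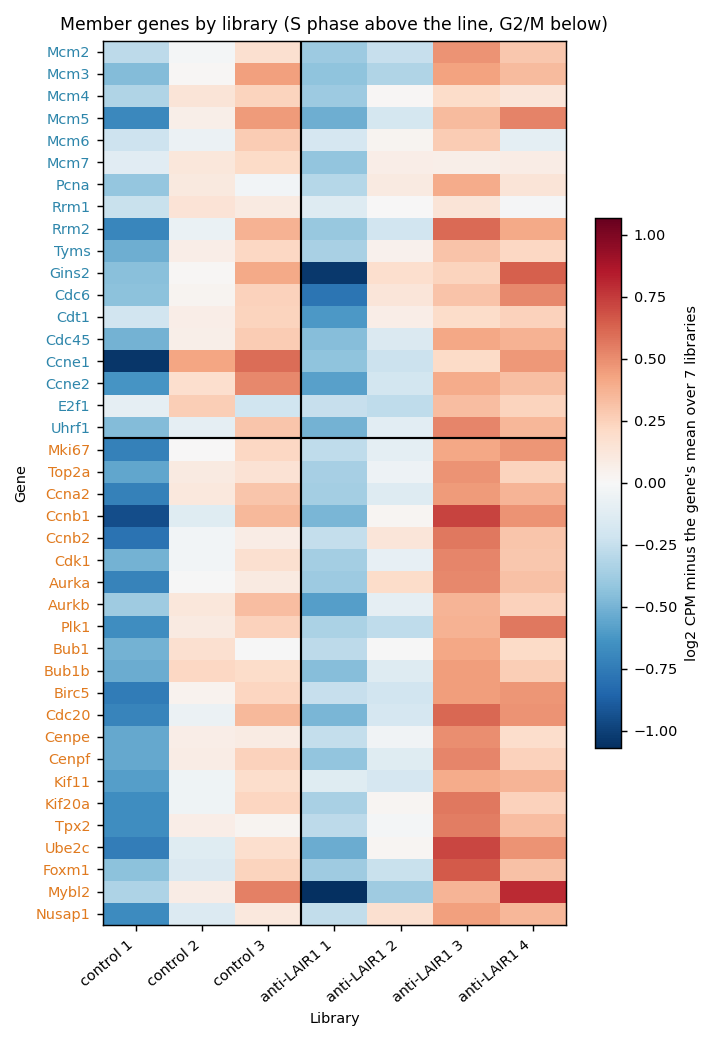
Level of each of the 40 genes (rows) in each of the 7 libraries (columns), as log2 CPM minus the gene's own mean over the libraries, with red above and blue below the mean. The columns of control replicate 1 and anti-LAIR1 replicate 1 are blue for nearly all genes and those of anti-LAIR1 replicates 3 and 4 red for most, so that the colours change with the tumour more than with the treatment.

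The libraries also differed in depth. Total counts ranged from 9879762 to 26255727, and control replicate 1 was the deepest and anti-LAIR1 replicate 1, with 15347403 counts, the next. Every library was also thinned at random to the smallest total. The G2/M level was then 4.47 in control replicate 1 and 4.71 in anti-LAIR1 replicate 1, against 5.59 in anti-LAIR1 replicate 3. Thinning leaves the expected CPM of a gene unchanged, so it cannot tell whether depth had a part in the levels. By depth, deepest first, the replicates were control 1, anti-LAIR1 1 and 2, control 2, anti-LAIR1 4 and 3, and control 3. In that order the S phase level was 4.26, 4.24, 4.62, 4.77, 4.97, 5.01 and 4.95. The G2/M level was 4.48, 4.71, 5.02, 5.11, 5.46, 5.60 and 5.30. Both levels thus tended to be higher in shallower libraries. Whether depth had a part in them was not tested. Over all 7 libraries the members had from 198 counts (Ccne1) to 27367 counts (Mki67) in total.

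Promoters of many cell cycle genes carry short sequences through which the cycle is known to set their timing. Promoters are shown for 4 G2/M and 2 S phase genes as the 160 bases just before the annotated start of transcription, 5′ to 3′ on the gene's strand, from RefSeq on GRCm38.p6, the assembly that mm10 names. For Mcm5 the last 41 of these are left out, since another transcript of the gene begins there. These were chosen because the motifs lie before the start, where no transcribed base has to be printed. Capitals mark matches on either strand to an E2F site (TTTGGCGC, TTTCCCGC, TTTCGCGC or TTTGCCGC), to the cell cycle homology region (CHR, TTTGAA or TTCGAA) or to a CCAAT box, and matches may overlap.
Ube2c (chr2:164769769-164769928, plus strand): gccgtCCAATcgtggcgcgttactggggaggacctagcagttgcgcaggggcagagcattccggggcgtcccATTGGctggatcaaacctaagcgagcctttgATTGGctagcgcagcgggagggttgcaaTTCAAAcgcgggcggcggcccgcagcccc
Cdc20 (chr4:118437344-118437503, minus strand): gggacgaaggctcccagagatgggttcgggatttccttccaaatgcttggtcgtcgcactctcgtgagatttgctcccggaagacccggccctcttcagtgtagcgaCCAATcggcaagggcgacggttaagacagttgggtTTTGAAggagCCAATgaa
Cdk1 (chr10:69352913-69353072, minus strand): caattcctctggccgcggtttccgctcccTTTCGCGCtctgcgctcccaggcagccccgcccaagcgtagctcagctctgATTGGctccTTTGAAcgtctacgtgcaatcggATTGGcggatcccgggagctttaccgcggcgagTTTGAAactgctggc
Kif11 (chr19:37376222-37376381, plus strand): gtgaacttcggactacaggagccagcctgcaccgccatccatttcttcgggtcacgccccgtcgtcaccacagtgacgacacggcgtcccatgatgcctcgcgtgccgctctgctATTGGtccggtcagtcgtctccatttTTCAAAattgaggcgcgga
Mcm6 (chr1:128359706-128359865, minus strand): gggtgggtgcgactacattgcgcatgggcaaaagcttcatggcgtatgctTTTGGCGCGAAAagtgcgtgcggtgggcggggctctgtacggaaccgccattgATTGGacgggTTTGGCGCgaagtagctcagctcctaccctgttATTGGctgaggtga
Mcm5 (chr8:75109349-75109467, plus strand): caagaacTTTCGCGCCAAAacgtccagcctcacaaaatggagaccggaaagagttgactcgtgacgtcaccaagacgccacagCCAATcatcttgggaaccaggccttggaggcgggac
In Ube2c, Cdc20, Cdk1 and Kif11 a CHR begins 29, 18, 15 and 19 bases before the start, each with a CCAAT box within the window. Mcm6 and Mcm5 have E2F letters in place of a CHR, in each case with a pair of overlapping matches on opposite strands, and Mcm6 has a further one.

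The RefSeq promoter table, which spans 250 bases before to 50 after each start, held 32 of the 40 members, and genes with several starts were counted once. A CHR stood in 12 of 17 G2/M promoters (70.6%) and 3 of 15 S phase promoters, against 21.7% of all 27025 genes in the table. An E2F site stood in 7 of 15 S phase promoters (46.7%) and 1 of 17 G2/M promoters (5.88%), that of Cdk1, against 2.6% of all genes. A CCAAT box was present in 14 of 17 G2/M and 10 of 15 S phase promoters, against 41.1% of all genes. None of the 3 motifs was found in the windows of Tyms, Ccne1, E2f1, Birc5, Mybl2 and Nusap1. A match is a run of letters and not a measured binding site. The Mcm7 promoter held both E2F and CHR letters.

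The S phase genes varied less. Across the 7 libraries the highest CPM of an S phase gene was a median of 1.85 times its lowest, with a range from 1.30 to 3.20, against 1.47 for all genes tested. Among the MCM2 to MCM7 subunits of the replicative helicase, Mcm7 (chromosome 5, 138164583 to 138172111) stood at 98.4, 117 and 123 CPM in controls and 80.0, 112, 112 and 113 CPM with anti-LAIR1. It was lowest in anti-LAIR1 replicate 1, followed by control replicate 1, and its log2 fold change, anti-LAIR1 minus control, was -0.11 (SE 0.14). Mcm2 (chromosome 6, 88883474 to 88898780) stood at 37.7, 45.3 and 51.6 CPM in controls and 35.0, 38.6, 64.2 and 55.9 CPM with anti-LAIR1. Mcm5 stood at 24.8, 41.8 and 54.9 CPM in controls and 27.8, 35.1, 50.6 and 57.6 CPM with anti-LAIR1. Both were low in the first replicate of each group and high in anti-LAIR1 replicates 3 and 4 and in control replicate 3, and their log2 fold changes were 0.11 (SE 0.22) and 0.09 (SE 0.33). Mcm3, Mcm4 and Mcm6 had log2 fold changes of 0.02, -0.03 and 0.01.

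Pcna, the sliding clamp that tethers DNA polymerases (chromosome 2, 132249286 to 132253180), stood at 30.8, 44.1 and 40.2 CPM in controls and 33.1, 43.8, 54.1 and 45.1 CPM with anti-LAIR1. Its log2 fold change of 0.20 (SE 0.18) had the smallest p of the S phase list (edgeR adjusted p = 1.00), and the groups overlapped. Of the nucleotide-supplying enzymes, Rrm2, the regulated subunit of ribonucleotide reductase, stood at 20.4, 31.6 and 42.9 CPM in controls and 25.1, 28.7, 50.3 and 43.9 CPM with anti-LAIR1. Its partner subunit Rrm1 had the narrowest range of all members: 107 ± 14.8 CPM in controls (SD, n = 3) against 107 ± 8.53 CPM in anti-LAIR1 tumours (SD, n = 4), with a highest to lowest ratio of 1.30 against 2.47 for Rrm2. Tyms, thymidylate synthase, lay between them at 1.78. The Rrm1 log2 fold change was -0.01 with a 95% confidence interval of -0.26 to 0.24, the narrowest of the list.

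Cdc6 and Cdt1 load the MCM helicase, and Cdc45 and Gins2 belong to the complex that activates it. Cdc6 stood at 5.94, 8.23 and 9.57 CPM in controls and 4.67, 8.78, 9.93 and 11.5 CPM with anti-LAIR1. Cdt1 stood at 21.3, 25.9 and 29.0 CPM in controls and 16.1, 25.9, 28.2 and 29.1 CPM with anti-LAIR1. Both had their lowest value in anti-LAIR1 replicate 1 and not in control replicate 1, and their log2 fold changes were 0.15 (SE 0.30) and -0.03 (SE 0.21). Gins2 had the widest range of the S phase genes, from 3.29 CPM in anti-LAIR1 replicate 1 to 10.5 CPM in anti-LAIR1 replicate 4. Its exons share 2758 bases with Gse1 on the opposite strand, which stood at 212 to 299 CPM, and whether the counting used strand is not stated, so its counts are uncertain. Cdc45 averaged 9.58 ± 2.48 CPM in controls (SD, n = 3) against 10.3 ± 2.88 CPM in anti-LAIR1 tumours (SD, n = 4).

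Cyclins E1 and E2 switch on CDK2 at the start of S phase, and E2F1 raises transcription of most genes of this list. Ccne1 stood at 0.950, 2.62 and 2.95 CPM in controls and 1.45, 1.66, 2.25 and 2.69 CPM with anti-LAIR1, the lowest member, and its 95% interval of -1.05 to 0.91 was the widest of the S phase list. Ccne2 stood at 5.86, 10.2 and 12.9 CPM in controls and 6.06, 7.92, 11.9 and 11.3 CPM with anti-LAIR1. Each was lowest in control replicate 1 and highest in control replicate 3, so the controls alone spanned the range. The exons of Ccne2 share 609 bases with Ints8 on the opposite strand, at 77.4 to 86.6 CPM, so its counts are uncertain. E2f1 stood at 11.6, 14.9 and 10.7 CPM in controls and 10.5, 10.2, 15.5 and 14.6 CPM with anti-LAIR1. It was the only member whose lowest library was anti-LAIR1 replicate 2, and it varied by a ratio of 1.52. Uhrf1, which maintains DNA methylation behind the replication fork, stood at 35.2, 45.5 and 59.7 CPM in controls and 34.3, 45.0, 69.8 and 62.2 CPM with anti-LAIR1, with a log2 fold change of 0.18 (SE 0.27).

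The G2/M genes varied more and together. Their highest CPM was a median of 2.28 times the lowest, from 1.89 for Bub1 to 3.65 for Mybl2. Mki67, which encodes the proliferation marker Ki-67 (chromosome 7, 135689784 to 135716450), stood at 164, 271 and 315 CPM in controls and 224, 251, 360 and 375 CPM with anti-LAIR1. Top2a, the topoisomerase that untangles sister chromosomes, stood at 117, 184 and 192 CPM in controls and 135, 166, 241 and 203 CPM with anti-LAIR1. For both, anti-LAIR1 replicate 1 lay below control replicates 2 and 3 and anti-LAIR1 replicates 3 and 4 above them. Mki67 averaged 250 ± 78.0 CPM in controls (SD, n = 3) against 303 ± 75.9 CPM in anti-LAIR1 tumours (SD, n = 4), and its log2 fold change of 0.28 (SE 0.26) had a 95% interval of -0.33 to 0.89.

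Cyclin B and CDK1 form the kinase that starts mitosis. Ccnb1 (chromosome 13, 100778739 to 100786486) stood at 10.6, 18.7 and 26.1 CPM in controls and 14.6, 20.8, 33.9 and 28.7 CPM with anti-LAIR1. Ccnb2 (chromosome 9, 70407689 to 70421554) stood at 14.0, 23.6 and 25.6 CPM in controls and 20.2, 26.5, 35.7 and 29.6 CPM with anti-LAIR1. Cdk1 (chromosome 10, 69335146 to 69352912) stood at 20.5, 28.6 and 32.8 CPM in controls and 22.7, 27.5, 42.0 and 35.7 CPM with anti-LAIR1. The cyclins had the larger estimates, log2 fold changes of 0.42 (SE 0.36) and 0.42 (SE 0.25) against 0.23 (SE 0.23) for Cdk1. With 4 against 3 tumours the 95% intervals were wide: -0.42 to 1.27 for Ccnb1 and -0.14 to 0.98 for Ccnb2. Ccna2, cyclin A2, averaged 79.5 ± 26.6 CPM in controls (SD, n = 3) against 88.8 ± 23.4 CPM in anti-LAIR1 tumours (SD, n = 4).

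Nusap1, which binds spindle microtubules near chromosomes (chromosome 2, 119618298 to 119650165), stood at 16.4, 23.6 and 28.1 CPM in controls and 21.7, 29.3, 35.3 and 33.2 CPM with anti-LAIR1. It had the smallest p of all members (log2 fold change 0.41 (SE 0.22), edgeR adjusted p = 0.980). Tpx2, which activates Aurora A on the spindle, stood at 27.8, 46.2 and 45.0 CPM in controls and 36.2, 43.5, 64.2 and 55.3 CPM with anti-LAIR1. Aurka, the Aurora A kinase itself, stood at 8.87, 14.5 and 15.6 CPM in controls and 11.1, 16.7, 20.8 and 18.2 CPM with anti-LAIR1. In each of these genes anti-LAIR1 replicate 1 lay among the controls, so the groups overlapped. Log2 fold changes were 0.33 (SE 0.24) for Tpx2 and 0.37 (SE 0.25) for Aurka, whereas Aurkb, the kinase of the chromosomal passenger complex, was at -0.02 and its partner Birc5 (survivin) at 0.27.

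Plk1, a kinase of mitotic entry, stood at 11.8, 19.9 and 22.2 CPM in controls and 14.7, 15.4, 24.1 and 27.5 CPM with anti-LAIR1, with a log2 fold change of 0.20 (SE 0.29). The spindle checkpoint genes Bub1 and Bub1b had log2 fold changes of 0.20 and 0.07. The kinesin genes Kif11 and Kif20a, whose motors separate the spindle poles and act in cytokinesis, were at 0.26 and 0.28, and the centromere genes Cenpe and Cenpf at 0.23 and 0.14. Ube2c and Cdc20, which work with the anaphase-promoting complex, were at 0.44 and 0.26. Ube2c had the largest estimate of all members: it averaged 13.9 ± 4.24 CPM in controls (SD, n = 3) against 18.6 ± 6.59 CPM in anti-LAIR1 tumours (SD, n = 4). Ube2c shares exon bases with the skeletal muscle gene Tnnc2 on the opposite strand, and Tnnc2 was at or below 0.363 CPM in all 7 libraries. Kif20a shares 1271 exon bases with Cdc23 on the opposite strand, at 39.6 to 41.8 CPM, so its counts are uncertain.

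Foxm1 and Mybl2 encode the factors FOXM1 and B-MYB, which raise transcription of the G2/M genes. Foxm1 stood at 41.8, 51.0 and 66.8 CPM in controls and 43.7, 48.2, 89.6 and 70.7 CPM with anti-LAIR1. Mybl2 stood at 7.13, 9.50 and 13.0 CPM in controls and 4.28, 6.92, 11.6 and 15.6 CPM with anti-LAIR1. Foxm1 followed the other G2/M genes, with its highest value in anti-LAIR1 replicate 3. Mybl2 had the widest range of all members, with its lowest and highest values both within the anti-LAIR1 group, and its log2 fold change was -0.03 (SE 0.42). With Aurkb it was 1 of the 2 G2/M genes whose log2 fold change lay below 0.

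**Figure D2:**
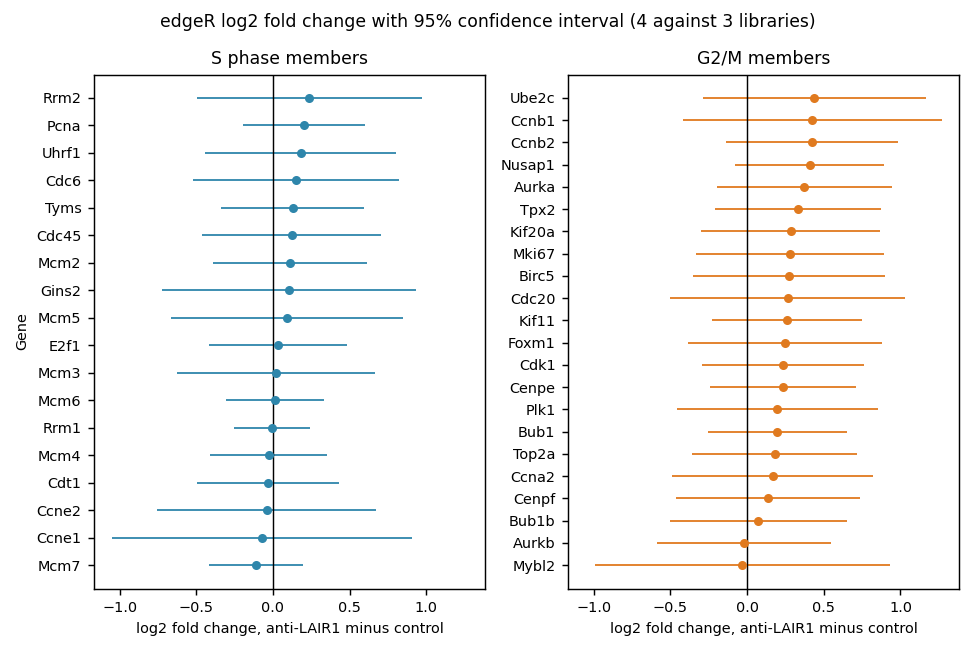
Log2 fold change of each member from edgeR, anti-LAIR1 minus control (points), with its 95% confidence interval (lines), for S phase genes on the left and G2/M genes on the right. All 40 intervals span 0, and 20 of 22 G2/M points lie to the right of 0 against 12 of 18 S phase points.

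Taken as lists, the S phase genes had a median log2 fold change of 0.06, with 12 of 18 above 0, and the G2/M genes a median of 0.25, with 20 of 22 above 0. Over all 13545 genes the median was -0.0028 and 49.1% were above 0. No test was made of a list. The counts moved with single tumours. Over the fits that left out 1 library they ranged from 2 to 17 of 18 for S phase genes and from 15 to 22 of 22 for G2/M genes. Without control replicate 1, the S phase median was -0.10 with 2 of 18 genes above 0, and the G2/M median was 0.04 with 15 of 22 above 0. Without anti-LAIR1 replicate 3 the medians were -0.05 and 0.10, with 6 and 18 genes above 0, and without anti-LAIR1 replicate 4 they were -0.03 and 0.16, with 7 and 19. Leaving out control replicate 3 moved them the other way, to 0.23 and 0.43, and leaving out anti-LAIR1 replicate 1 to 0.20 and 0.38. Leaving out anti-LAIR1 replicate 2 gave 0.13 and 0.34, and leaving out control replicate 2 gave 0.11 and 0.31. Limma-voom gave medians of -0.01 and 0.14. Single genes moved likewise. Without control replicate 1 the log2 fold change was 0.04 for Mki67, 0.05 for Cdk1 and for Pcna, 0.0029 for Uhrf1, and 0.21 for Nusap1. It was 0.18 for Ccnb2, 0.13 for Ccnb1, 0.14 for Aurka and 0.12 for Tpx2. Foxm1 was at 0.03 without anti-LAIR1 replicate 3, and Mcm7 at -0.0016 without anti-LAIR1 replicate 1.

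**Figure D3:**
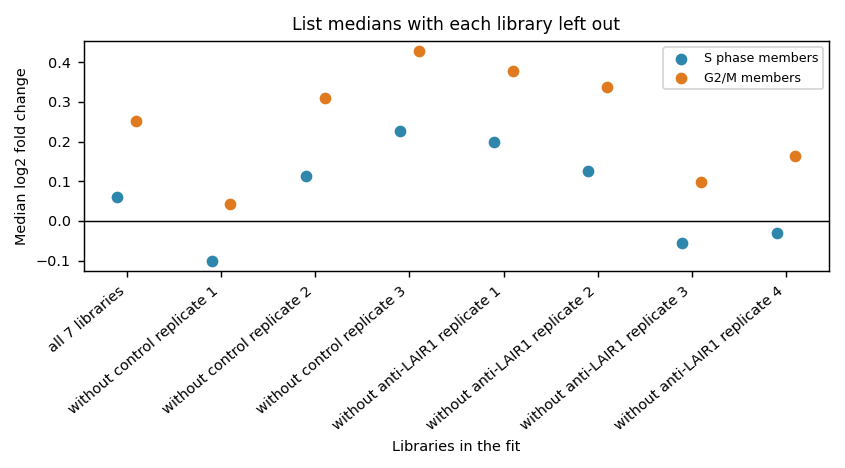
Median log2 fold change, anti-LAIR1 minus control, of the S phase and G2/M genes (vertical axis) with all 7 libraries and with each library left out in turn (horizontal axis). The S phase median lies below 0 without control replicate 1, anti-LAIR1 replicate 3 or anti-LAIR1 replicate 4, and the G2/M median is above 0 throughout but is 0.04 without control replicate 1.

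For every member the fold between the highest and lowest library of each group exceeded the fold between groups. The share of all genes for which this holds was not counted, so it is not read as particular to the members. Within the controls, the highest library was a median of 1.65 times the lowest for S phase genes and 1.74 times for G2/M genes. Within the anti-LAIR1 tumours these ratios were 1.82 and 1.86. For all genes tested they were 1.26 and 1.35. The median size of the log2 difference between groups was 0.10 for S phase genes and 0.25 for G2/M genes, with median standard errors of 0.24 and 0.25, against 0.10 and 0.15 for all genes. The wide intervals do not show that the treatments act alike on these genes.

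**Figure D4:**
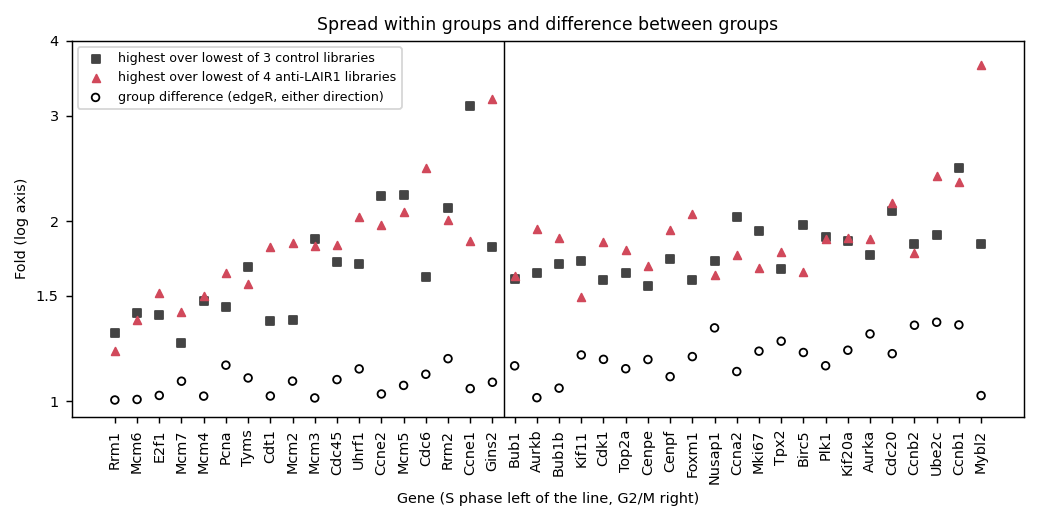
Ratio of the highest to the lowest CPM among the 3 controls (squares) and among the 4 anti-LAIR1 libraries (triangles), and size of the group difference as a fold (open circles), for each member on a log axis. The open circles lie below both other symbols for every gene, and the symbols of Ccne1, Gins2 and Mybl2 reach the highest ratios.

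The levels of the lists relative to each other differed between the groups more clearly than either level did. The G2/M level minus the S phase level was 0.22, 0.35 and 0.35 in controls and 0.47, 0.40, 0.59 and 0.49 with anti-LAIR1 on the log2 scale. All 4 anti-LAIR1 tumours lay above all 3 controls, and the means were 0.49 ± 0.076 (SD, n = 4) and 0.31 ± 0.078 (SD, n = 3), a difference of 0.18. Leaving out 1 library could not bring about an overlap, and in those fits the difference ranged from 0.14 to 0.21. Another scaling shifts both levels of a library nearly alike, so it could hardly alter their difference. Thinning could change the values only through counting error. After it the groups did not overlap, and the difference was 0.22. No p is given, since the members were chosen with results of these data known. Relative to the S phase level of its own library, 8 of 22 G2/M genes were higher in every anti-LAIR1 library than in every control, against 1.11% of all genes tested. They were Mki67, Ccnb2, Cdk1, Aurka, Kif20a, Tpx2, Ube2c and Nusap1, and Aurkb was lower in every anti-LAIR1 library, by a gap of under 0.01 on the log2 scale. These genes share their libraries and the S phase level they are measured against, so the 8 are not separate observations. The subtraction removes the swing that G2/M genes share with the S phase level and adds that swing to genes without it. The share of all genes is thereby lowered, from 3.06% without the subtraction, and nothing is read from the contrast with it.

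**Figure D5:**
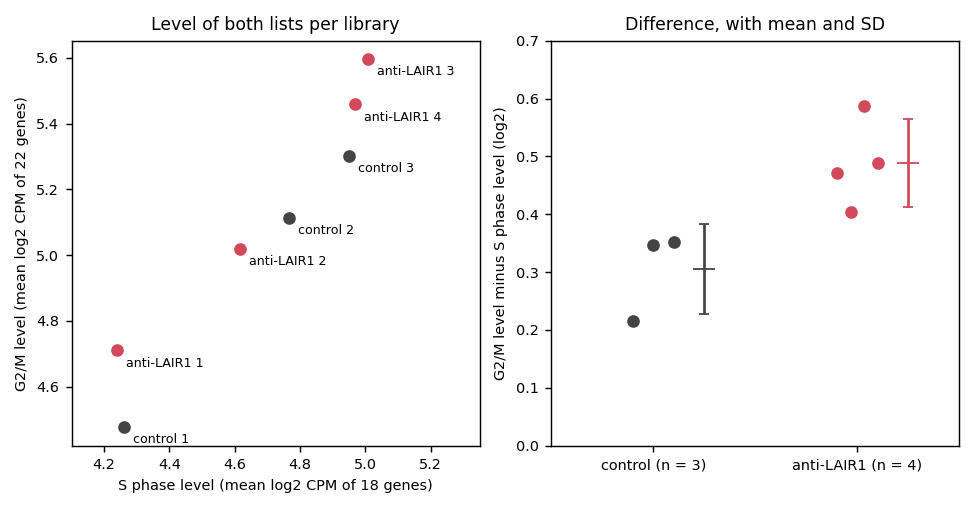
Left, G2/M level against S phase level (mean log2 CPM) of each library, with controls in grey and anti-LAIR1 in red. Right, the difference between these levels in each library with group mean and SD, where controls lie from 0.22 to 0.35 and anti-LAIR1 tumours from 0.40 to 0.59.

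The same could be asked of other genes of the cycle, from wider lists that do not contain the members. Of 45 other replication genes (origin recognition, polymerases, clamp loader and the like) 0 passed the test, 25 were above 0 and the median log2 fold change was 0.04. Of 57 other mitosis genes 0 passed, 53 were above 0 and the median was 0.20. Without control replicate 1 the counts above 0 were 12 and 34, with medians of -0.05 and 0.02. The level of the mitosis list minus that of the replication list was 0.12, 0.39 and 0.34 in controls and 0.34, 0.41, 0.58 and 0.48 with anti-LAIR1. Here the groups overlapped, anti-LAIR1 replicate 1 lying below control replicates 2 and 3.

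Among the other mitosis genes the smallest p belonged to Hmmr, which binds hyaluronan and the spindle, at 15.1, 23.7 and 23.0 CPM in controls and 22.6, 25.2, 35.1 and 31.7 CPM with anti-LAIR1 (log2 fold change 0.48 (SE 0.20), edgeR adjusted p = 0.954). Bub3, a spindle checkpoint protein, stood at 53.5, 58.0 and 60.6 CPM in controls and 61.9, 64.3, 67.6 and 68.2 CPM with anti-LAIR1. Bub3 was the only gene of the 57 mitosis and 45 replication genes whose groups did not overlap. Of all genes tested, 3.06% were higher with anti-LAIR1 without overlap, so nothing is read from this 1 gene. Its log2 fold change was 0.19 (SE 0.09), with an edgeR adjusted p of 0.967. Of the replication list, Slbp, the histone mRNA binding protein, stood at 19.3, 17.4 and 21.3 CPM in controls and 23.2, 20.6, 26.6 and 20.3 CPM with anti-LAIR1, and Orc4, an origin recognition subunit, at 50.9, 51.2 and 54.0 CPM in controls and 62.5, 54.7, 55.2 and 53.1 CPM with anti-LAIR1. Their log2 fold changes were 0.23 (SE 0.14) and 0.12 (SE 0.09), and the groups overlapped.

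Of 14 G1 regulators 0 passed the test and 9 were above 0 (median 0.04). Myc, a transcription factor that drives cells into the cycle, stood at 121, 132 and 189 CPM in controls and 89.0, 132, 124 and 106 CPM with anti-LAIR1, with a log2 fold change of -0.38 (SE 0.18). Cdk6, a partner of the D cyclins, stood at 106, 114 and 111 CPM in controls and 133, 137, 155 and 100 CPM with anti-LAIR1, with a log2 fold change of 0.25 (SE 0.13). The high value of Myc came from control replicate 3, without which its log2 fold change was -0.17, and the groups overlapped in both genes. Of 15 cell cycle inhibitors and pocket proteins 0 passed and 10 were above 0 (median 0.07). Cdkn2a, which encodes p16 and ARF, stood at 106, 117 and 123 CPM in controls and 106, 110, 103 and 102 CPM with anti-LAIR1, and Rbl2, the pocket protein p130, at 123, 116 and 103 CPM in controls and 116, 103, 93.0 and 93.6 CPM with anti-LAIR1. Rbl2 was lowest in anti-LAIR1 replicates 3 and 4, where the members were highest.

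Levels of different genes can be set side by side only per length. Per kilobase of annotated exons (GENCODE M21) and averaged over the 7 libraries, Mki67 (27.8 CPM per kb), Mcm7 (24.4), Ccna2 (20.8) and Top2a (19.6) were the most abundant members. Ccne1 (0.782), Cdc6 (1.60), Gins2 (1.75) and Mybl2 (2.10) were the least abundant. The genes of the lowest levels were also among those with the widest range between libraries. In total they had 198 (Ccne1), 830 (Cdc6), 706 (Gins2) and 953 (Mybl2) counts. Relative counting error is larger at lower counts, but whether it had a part in these ranges was not tested. Ccnb1, with 2096 counts, also had a highest to lowest ratio of 3.20.

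Markers of other cell types differed between the groups of tumours in part. The summed level of 12 leukocyte markers was 126 to 158 CPM in controls and 169 to 227 CPM with anti-LAIR1, without overlap. Of these markers, 9 could be tested, of which 0 passed edgeR's test and 8 were above 0, while Ncr1 was at 0 in 5 libraries. DESeq2 called 1 of them, Csf1r, a macrophage receptor (adjusted p = 0.00948). The highest leukocyte sums, 227 and 224 CPM, were those of anti-LAIR1 replicates 4 and 1, whose G2/M levels were 5.46 and 4.71. Summed epithelial markers (9 genes, mostly Cdh1 and keratins) were 4747 to 5887 CPM in controls and 4851 to 5853 CPM with anti-LAIR1, with Cldn7 and Esrp1 each at 0 in 2 libraries. Summed muscle markers (8 genes) were 11.05 to 14.5 CPM in controls and 122, 15.5, 87.3 and 119 CPM with anti-LAIR1, and Acta1 was at 0 in control replicate 3 and anti-LAIR1 replicate 2. Of these 0 passed edgeR's test and DESeq2 called 2, Ttn (adjusted p = 0.00188) and Neb (adjusted p = 0.00366), which encode giant proteins of the sarcomere. Endothelial markers (5 genes) summed to 61.1 to 94.4 against 95.5 to 112 CPM, also without overlap. All 5 of them were above 0, and 0 passed edgeR's test. Fibroblast markers (7 genes) summed to 2611 to 2864 against 1859 to 3211 CPM. Of 6 lung markers, Sftpb gave nearly all of the sum of 1102 to 3136 CPM, and Scgb1a1 was at 0 in 6 libraries. Whether these cells had a part in the levels of the members was not tested.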

How the data were processed

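The values the authors deposited are raw counts of reads for each gene symbol in 7 tumour libraries, from directional, polyadenylated RNA libraries sequenced as single reads, per the labels' protocols. The build is mm10, and the tools named are featureCounts 2.0.1, STAR 2.7.6, edgeR 3.40.1 and Trim Galore, per the submitters' processing notes. The annotation, use of strand and handling of multimapping reads were details not given in the sources used here. Counts of the 10 members whose exons overlap a gene on the opposite strand are therefore uncertain. These members are Mcm7, Gins2, Cdc45, Ccne2, Ccna2, Plk1, Cdc20, Kif20a, Ube2c and Nusap1. Groups came from the treatment label, each library from a separately named mouse, and replicates were numbered in accession order.

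In R 4.3.3, edgeR 4.0.16 kept 13545 genes (filterByExpr, minimum count 10), scaled by TMM and fitted all 7 libraries with a robust quasi-likelihood model without covariates, with Benjamini-Hochberg adjustment over all genes and a threshold of 0.05. Log2 CPM used a prior count of 2. DESeq2 1.42.0, limma 3.58.1 (voom with sample quality weights), other scalings and filters, and leaving out each library were alternatives. Thinning was chosen after seeing the data. Per library, 3 counts are worth 0.119 to 0.305 CPM, for counting error only. The script was tested on simulated data. Values are given by library for 17 members chosen for their roles and for the 4 members of each list with the smallest p, besides the 2 genes of smallest p from each wider list. Other values illustrate a role. Members and lists were chosen with earlier results of these data known. The alleles of the mouse models and 1 marker gene are not reported here. Figures were drawn with matplotlib 3.10.9.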

Additional observations from a re-analysis of the deposited data

Results flagged for a closer look

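In the 4 anti-LAIR1 libraries, 1 of 40 members and 0 of 3 list levels had a library that stood far from the other 3 by Dixon's criterion for the gap to the nearest library over the whole range. It was Mcm7, at 80.0 CPM in anti-LAIR1 replicate 1 against 112 to 113 CPM in the other anti-LAIR1 libraries. Chance flags about 1 in 20 such groups.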

How the results depend on the processing

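No member was called under any alternative run. The count of genes called over the whole table was 0 except with DESeq2 (54) and, among fits without 1 library, ranged from 0 to 3. Over the fits without 1 library, genes above 0 ranged from 2 to 17 of 18 for the S phase list and from 15 to 22 of 22 for the G2/M list. They ranged from 12 to 38 of 45 for the other replication list and from 34 to 54 of 57 for the other mitosis list. Library totals in place of TMM shifted the median of all genes to 0.03 and turned the sign of 4 members, Rrm1 (0.02), Cdt1 (0.0014), Aurkb (0.0094) and Mybl2 (0.0043). Limma-voom turned 4, Mcm3 (-0.07), Mcm5 (-0.036), E2f1 (-0.13) and Bub1b (-0.07). Thinning turned Aurkb (0.02) and Mybl2 (0.094) and put Ccne1 at -0.66. At least 1 of the fits without 1 library turned the sign of 15 of 18 S phase and 7 of 22 G2/M members. Among those with values given by library, log2 fold changes ranged from -0.052 to 0.24 for Mcm2, -0.18 to 0.36 for Mcm5, -0.012 to 0.51 for Rrm2, -0.034 to 0.36 for Cdc6, -0.15 to 0.13 for Cdt1, -0.47 to 0.20 for Ccne1, -0.32 to 0.21 for Ccne2, -0.076 to 0.19 for E2f1, -0.020 to 0.31 for Top2a, -0.046 to 0.37 for Plk1 and -0.38 to 0.22 for Mybl2. The cause was not tested. No paired analysis was possible because the labels give mouse names and no replicate numbers. Depth limits the least counted member, Ccne1, at 198 counts over all libraries.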

Other observations

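The Aurora kinases had unlike values relative to the S phase level of their library, a pair singled out after its values were seen. The log2 level of Aurka minus the S phase level was -1.09, -0.89 and -0.98 in controls and -0.75, -0.54, -0.62 and -0.78 with anti-LAIR1, higher in all 4 than in any control. For Aurkb the values were -1.06, -1.07 and -1.04 in controls and -1.24, -1.13, -1.07 and -1.15 with anti-LAIR1. The order of the groups in Aurkb rests on a gap of under 0.01 between control replicate 2 (-1.0654) and anti-LAIR1 replicate 3 (-1.0698). Neither gene passed edgeR's test on its own level (adjusted p = 1.00 for each).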
